A study of Mus musculus with 15 samples.

Results

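The late cornified envelope genes of the Lce1 family were followed in mouse embryonic fibroblasts lacking p27, stathmin or both. All probes were taken whose gene, by the name in the array files or by the accession looked up in RefSeq, begins with Lce1. This gave 16 of the 41174 distinct probes on the array. They belong to 13 of the 14 Lce1 genes in the RefSeq table (13 of 27656 gene names on the array), and no probe was matched to Lce1k. The accession named 14 probes and the gene ID named the 2 probes of Lce1j. In the files most of these genes carry older names, such as Sprrl9 for Lce1h, 1110031B11Rik for Lce1e and Lce5a for Lce1m. The family was singled out because Lce1i, Lce1h and Lce1e were low in p27 knock-out against wild type, and Lce1e also in stathmin knock-out against wild type. Those differences are therefore given as descriptions, with no test.

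Lce proteins are small proteins rich in glycine, serine and cysteine that keratinocytes make late in epidermal differentiation. Transglutaminases cross-link them into the cornified envelope, the protein shell that replaces the plasma membrane of the dead outer cells of skin. The genes lie side by side in the epidermal differentiation complex on mouse chromosome 3, with loricrin, involucrin, the small proline-rich genes and many S100 genes in the same region. They are known as products of skin rather than of fibroblasts.

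RNA was measured in 4 p27 knock-out, 4 stathmin knock-out, 3 double knock-out and 4 wild type samples, each on 1 array of 2 colours. p27, the product of Cdkn1b, inhibits cyclin-dependent kinases, and stathmin, the product of Stmn1, destabilises microtubules; the double knock-out lacks both. Fibroblasts of all genotypes came from embryos at 13.5 days on a C57B6 background, were used at passage 3, and were harvested at high confluence after 24 h without serum. The sample was labelled with Cy5 (red) and a reference of pooled fibroblast RNA with Cy3 (green) on every array, with no dye swap, so each value is a log2 ratio of sample over reference. How the alleles were made and how many embryos went into a culture is not given in the sources used here. The arrays of a genotype are biological replicates per the labels, and p-values measure the spread between them.

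Between 59.3 and 78.9% of an array's spots had a red (sample) signal marked by the scanner software as well above background, a mark used below; precision is limited by the number of arrays. Of 2 tested Stmn1 probes, 1 averaged -2.78 ± 0.15 in stathmin knock-out (SD, n = 4) and -2.77 ± 0.08 in double knock-out (SD, n = 3), against 0.76 ± 0.10 in wild type (SD, n = 4). The other Stmn1 probe differed little, at -0.51 ± 0.36 in stathmin knock-out (SD, n = 4) and -0.24 ± 0.19 in double knock-out (SD, n = 3), against -0.10 ± 0.34 in wild type (SD, n = 4). The tested Cdkn1b probe averaged -0.34 ± 0.52 in p27 knock-out (SD, n = 4) and -0.75 ± 0.83 in double knock-out (SD, n = 3), against 0.22 ± 0.50 in wild type (SD, n = 4), with overlapping arrays. A dim Cdkn1b probe, left out of the fit, was lower on every p27 knock-out and double knock-out array (-0.15 ± 0.04 and -0.13 ± 0.05) than on every wild type array (0.26 ± 0.06). On the stathmin knock-out arrays, which carry p27, it was 0.53, 0.22, 0.07 and -0.13, the last among the values of the arrays lacking p27. Another dim Cdkn1b probe overlapped. Where these probes lie relative to the deleted parts is not given in the sources used here. Across all tested probes wild type 3 and 4 correlated at 0.816 in their log2 ratios, against 0.627 for the next closest pair of arrays. The 15 arrays lie on 4 slides, each with 1 array of every genotype except the second, which has no double knock-out. Each genotype always occupies 1 place on the slide, and effects of that place and of genotype cannot be told apart.

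The promoters of Lce1e, Lce1g, Lce1h, Lce1i, Lce1j and Lce1l are shown to set the relatedness of these copies beside their values. The first 4 each have a probe whose range over the arrays exceeded the median of 1.14 over all tested probes. Lce1j lies next to them, and its probe 2 was also just above that median (1.17), while Lce1l hardly varied. The table of promoters held 13 Lce1 genes; Lce1f was not among them. Each line gives the 120 bases before the transcription start (RefSeq, GRCm38.p6), 5′ to 3′ on the strand of the gene. Capitals mark 3 stretches: the run ACTGTCTCAC, the run TCAGAATAAAAGGAC, and, in Lce1l, the TATA-like ATAAAAG that forms part of the longer run.
Lce1e, chr3:92709075-92709194, minus strand: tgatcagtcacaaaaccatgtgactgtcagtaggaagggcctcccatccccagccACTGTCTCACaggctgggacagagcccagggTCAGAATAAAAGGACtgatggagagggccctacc
Lce1g, chr3:92752339-92752458, minus strand: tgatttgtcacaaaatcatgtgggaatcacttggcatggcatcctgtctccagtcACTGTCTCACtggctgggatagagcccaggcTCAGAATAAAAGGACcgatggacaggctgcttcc
Lce1h, chr3:92765066-92765185, minus strand: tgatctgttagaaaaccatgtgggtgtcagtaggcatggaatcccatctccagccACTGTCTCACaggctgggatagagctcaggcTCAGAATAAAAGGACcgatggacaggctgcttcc
Lce1i, chr3:92778900-92779019, minus strand: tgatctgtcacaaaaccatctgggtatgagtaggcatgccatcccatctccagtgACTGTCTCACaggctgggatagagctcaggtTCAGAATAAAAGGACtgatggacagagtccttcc
Lce1j, chr3:92790515-92790634, minus strand: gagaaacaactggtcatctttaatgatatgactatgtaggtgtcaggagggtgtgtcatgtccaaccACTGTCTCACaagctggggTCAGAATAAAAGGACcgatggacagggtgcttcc
Lce1l, chr3:92851287-92851406, minus strand: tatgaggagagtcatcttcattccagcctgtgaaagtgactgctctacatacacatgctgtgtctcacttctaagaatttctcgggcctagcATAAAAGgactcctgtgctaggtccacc

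The 15-base run TCAGAATAAAAGGAC stood in the 250 bases before the start of 6 of 13 Lce1 genes (Lce1c, Lce1e, Lce1g, Lce1h, Lce1i and Lce1j), and in 6 of 32851 promoters of the genome (0.0183%). It was therefore found in no promoter outside the family. The 10-base run ACTGTCTCAC stood in 9 of 13 Lce1 promoters and in 0.131% of all promoters, and the 7-base ATAAAAG inside the longer run stood in 10 of 13 against 4.83%. Both strands were searched. The AP-1 motif TGANTCA, the letters bound by Fos and Jun proteins, was in 0 of 13 Lce1 promoters and in 6.75% of all promoters; the window covers only 250 bases. Over these 250 bases the promoters of Lce1e, Lce1g, Lce1h and Lce1i were 76.4 to 85.6% identical to each other (6 pairs). They were 47.7 to 69.2% identical to the other Lce1 promoters (36 pairs), Lce1j among them. Those others were 46.3 to 74.3% identical among themselves (36 pairs). The closest pair was Lce1g and Lce1i. The 2 runs are the longest that Lce1e, Lce1g, Lce1h and Lce1i share in the stretch shown, and these 4 genes were grouped after their array values were seen. The dim Lce1c carries the longer run as well. Its probe was well above background on only 3 arrays, so whether that gene varied cannot be told. How the run relates to the array values was not tested.

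Of the 16 probes, 12 probes of 10 genes entered the fit, which required this mark in the sample channel on 3 or more arrays of some genotype. No Lce1 spot was saturated or marked as an outlier. It was present on all 15 arrays for 10 probes: Lce1b probe 1, Lce1f, both probes of Lce1g, Lce1h, Lce1i, both probes of Lce1j, Lce1l and Lce1m. Lce1e was well above background on 14 arrays, all but p27 knock-out 2, and Lce1a1 on 12. The other 4 probes were left out. Lce1c was well above background on 3 arrays of different genotypes, Lce1b probe 2 on 2 arrays, Lce1d on 1 array (wild type) and Lce1a2 on 0 of 15. Raw sample signals of these 4 probes lay between 80 and 254 units, and their ratios are not interpreted.

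Lce1h and Lce1i, neighbours in the cluster, showed the clearest pattern: low in each single knock-out, and similar in the double knock-out and in wild type. The log2 ratio of Lce1h was -0.81, -2.41, -1.93 and -1.51 on the p27 knock-out arrays 1 to 4, and -1.43, -0.84, -0.57 and -1.53 on the stathmin knock-out arrays 1 to 4. It was -0.14, -0.29 and 1.12 on the double knock-out arrays 1 to 3, against 0.23, -0.10, 1.37 and 0.75 on the wild type arrays 1 to 4. All 8 single knock-out arrays lay below all 7 arrays of the other genotypes, while the double knock-out and wild type arrays overlapped. How many of all tested probes split in this way was not counted, here or for Lce1i and Lce1e below. Taken by pairs of genotypes, such separations held for 1.42 to 2.26% of all tested probes. The 3 genes were also noticed on part of these arrays. Genotype means of Lce1h were -1.66 ± 0.68 in p27 knock-out, -1.09 ± 0.46 in stathmin knock-out and 0.23 ± 0.77 in double knock-out, against 0.56 ± 0.64 in wild type (SD, n = 4, 4, 3 and 4). In that order the step between the single knock-outs and the step between double knock-out and wild type were within the spread of the arrays.

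Lce1i followed the same order. Its log2 ratio was -0.89, -2.44, -1.82 and -1.46 on the p27 knock-out arrays, -1.65, -0.67, -0.37 and -1.34 on the stathmin knock-out arrays, and -0.03, -0.05 and 1.24 on the double knock-out arrays, against 0.42, -0.06, 1.37 and 0.84 on the wild type arrays. Again every single knock-out array lay below every array of the other genotypes. The means were -1.65 ± 0.65 in p27 knock-out, -1.01 ± 0.59 in stathmin knock-out and 0.39 ± 0.74 in double knock-out, against 0.64 ± 0.61 in wild type.

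Lce1e had the same order over a smaller range. Its log2 ratio was -0.50, -0.73, -0.59 and -0.37 on the p27 knock-out arrays, -0.66, -0.21, -0.15 and -0.74 on the stathmin knock-out arrays, and 0.04, -0.09 and 0.66 on the double knock-out arrays, against 0.47, 0.01, 0.74 and 0.48 on the wild type arrays. The single knock-out arrays lay below all others here too, with a narrow gap. The means were -0.55 ± 0.15 in p27 knock-out, -0.44 ± 0.30 in stathmin knock-out and 0.20 ± 0.40 in double knock-out, against 0.42 ± 0.30 in wild type. Double knock-out 1 had a raw reference signal of 767 units for Lce1e and a sample signal of 998, while the reference signal was 200 to 330 on the other 14 arrays.

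Lce1f varied more than the other members and did not separate the genotypes. Its log2 ratio was -0.06, -2.75, -2.60 and -2.63 on the p27 knock-out arrays, -2.55, 0.16, -1.07 and -2.23 on the stathmin knock-out arrays, and -2.03, -0.44 and 1.06 on the double knock-out arrays, against -1.36, -0.60, 1.97 and 1.42 on the wild type arrays. High and low arrays occurred in each genotype, so the genotypes overlapped. The means were -2.01 ± 1.30 in p27 knock-out, -1.42 ± 1.23 in stathmin knock-out and -0.47 ± 1.55 in double knock-out, against 0.36 ± 1.59 in wild type.

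The 2 probes of Lce1g disagreed. Probe 1 gave 0.33, -1.50, 0.01 and -1.95 on the p27 knock-out arrays, -2.03, 0.98, -0.18 and -0.27 on the stathmin knock-out arrays, and -0.23, -0.36 and 0.29 on the double knock-out arrays, against -0.45, 0.00, 0.77 and 0.23 on the wild type arrays. Probe 2 stayed between -0.05 and 0.31 on all 15 arrays. Its genotype means were 0.19 ± 0.12 in p27 knock-out, 0.08 ± 0.11 in stathmin knock-out and 0.13 ± 0.02 in double knock-out, against 0.17 ± 0.15 in wild type. The level of Lce1g RNA is therefore uncertain.

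Lce1j, the neighbour of Lce1i, had the same order of means over a small range. Probe 2 averaged -0.24 ± 0.16 in p27 knock-out, -0.19 ± 0.21 in stathmin knock-out and 0.03 ± 0.22 in double knock-out, against 0.31 ± 0.31 in wild type. Probe 1 averaged -0.11 ± 0.13 in p27 knock-out, -0.08 ± 0.06 in stathmin knock-out and 0.00 ± 0.17 in double knock-out, against 0.17 ± 0.26 in wild type. The arrays of the genotypes overlapped for both probes. Of the remaining members tested, Lce1a1, Lce1b probe 1, Lce1l and Lce1m had ranges of 0.37 to 0.48 over all 15 arrays, less than the median range of 1.14 over all tested probes. Their genotype means lay between -0.09 and 0.26.

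**Figure D1:**
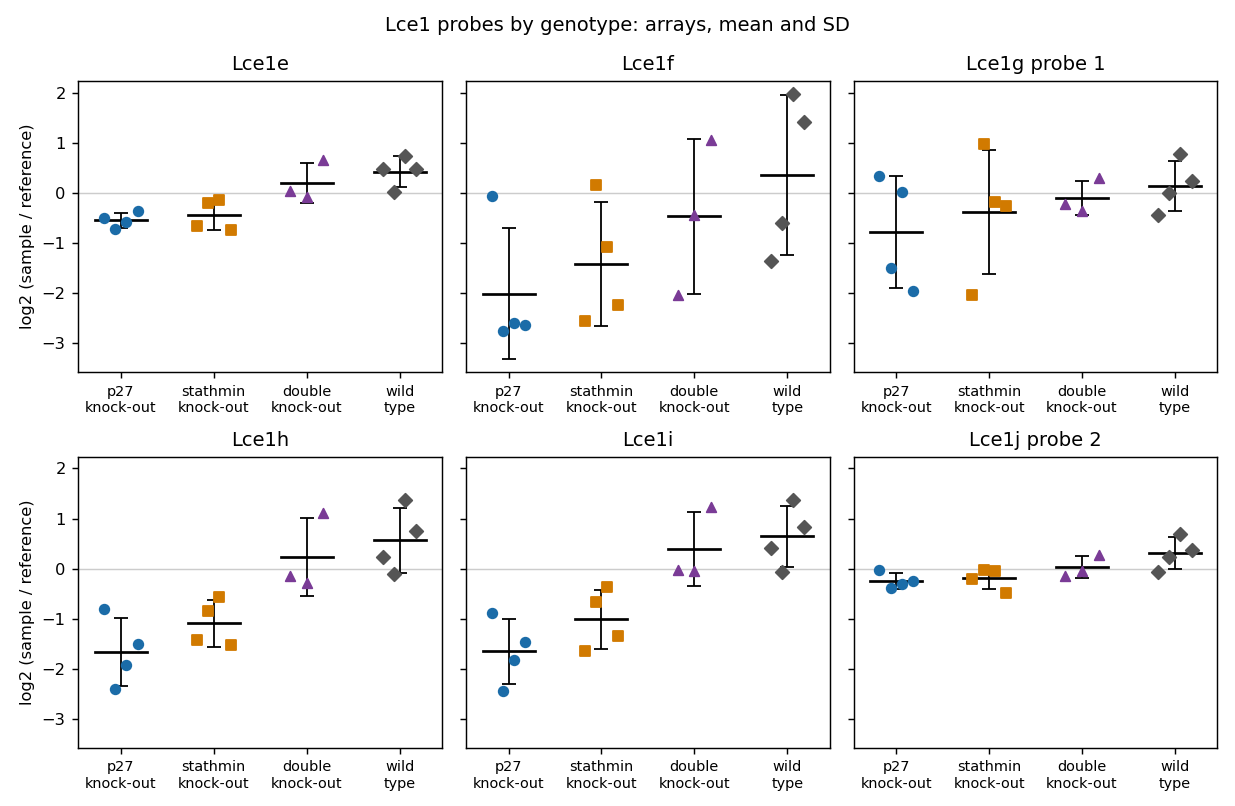
Log2 ratio of sample over pooled reference (vertical axis) for 6 Lce1 probes in 4 genotypes; points are arrays, lines are means and bars are SD (n = 4, 4, 3 and 4). For Lce1h, Lce1i and Lce1e all single knock-out arrays lie below all double knock-out and wild type arrays. The share of all tested probes with this split was not counted. Lce1f spans 4.72 log2 units with overlapping genotypes.

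**Figure D2:**
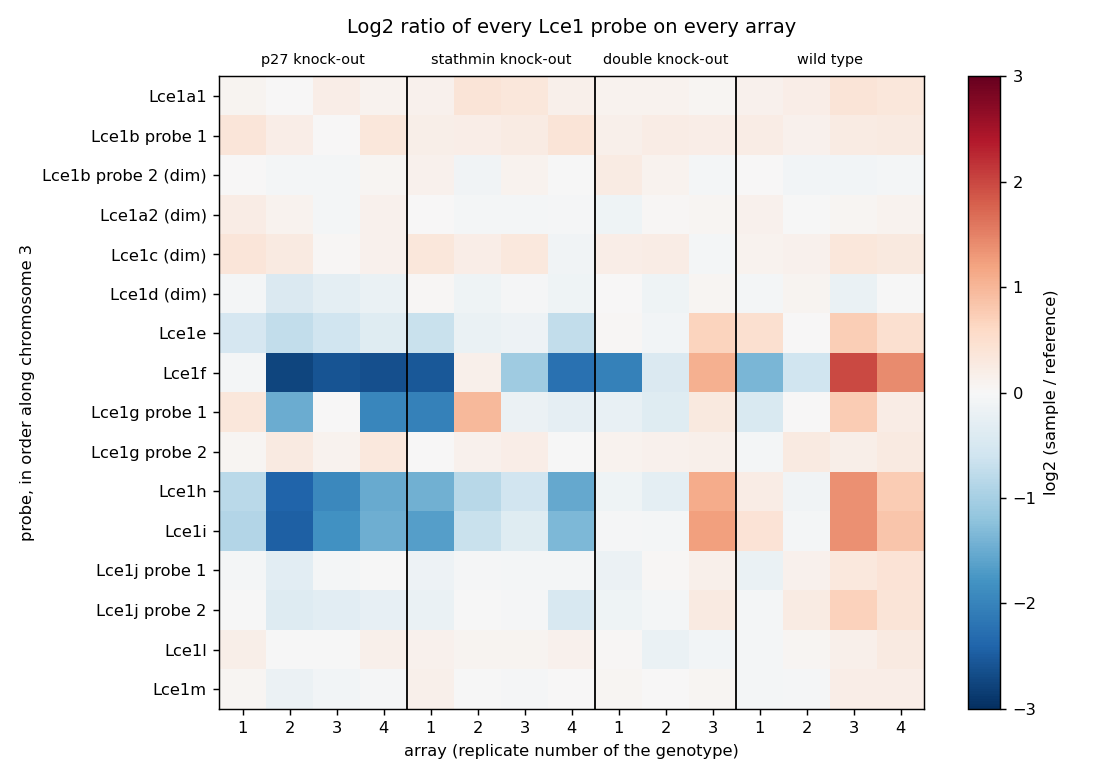
Log2 ratio (colour) of each of the 16 Lce1 probes (rows, in order along chromosome 3) on each of 15 arrays (columns, grouped by genotype); the 4 probes marked dim were not tested. The colour changes between arrays mainly for Lce1e, Lce1f, Lce1g probe 1, Lce1h and Lce1i, which lie near each other, and hardly at Lce1l and Lce1m.

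Ranked by range over the 15 arrays, Lce1f (4.72), Lce1i (3.81), Lce1h (3.78) and Lce1g probe 1 (3.01) exceeded 98.9, 97.3, 97.2 and 94.1% of the tested probes. For Lce1h, Lce1i and Lce1f the change lay in the sample channel. The raw reference signal was 806 to 1083 units for Lce1h, 1285 to 1604 for Lce1i and 1286 to 1593 for Lce1f over all arrays. The raw sample signal of Lce1h was 221 to 580 units in p27 knock-out, 418 to 734 in stathmin knock-out and 953 to 3413 in double knock-out, against 929 to 2793 in wild type. That of Lce1i was 343 to 855 units in p27 knock-out, 602 to 1434 in stathmin knock-out and 1849 to 5959 in double knock-out, against 1500 to 4399 in wild type. For Lce1f it spanned 270 to 1529 units in p27 knock-out, 304 to 2163 in stathmin knock-out and 401 to 4473 in double knock-out, against 382 to 6681 in wild type. In RNA of whole cultures, fewer cells of a type and less RNA per cell cannot be told apart.

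**Figure D3:**
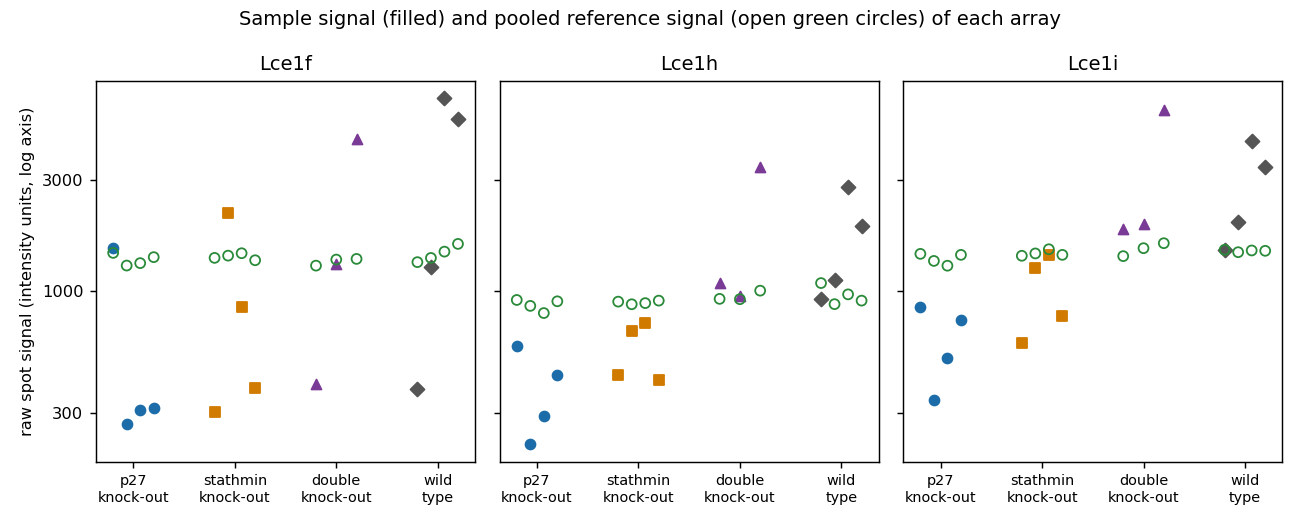
Raw spot signal (intensity units, log axis) of the sample channel (filled symbols) and the pooled reference channel (open green circles) for Lce1f, Lce1h and Lce1i on every array, by genotype. The reference stays between 806 and 1604 units across the 3 probes while the sample signal of Lce1h spans 221 to 3413 units.

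The Lce1 genes are close copies, so a probe may bind RNA of another member. No probe sequences were at hand to count mismatches, and the part of cross-hybridisation in these values was not tested. What could be described is how alike the probes behaved over the 15 arrays, which share the reference pool, the slides and the genotypes. Lce1h and Lce1i correlated at r = 0.99, and at 0.98 after the genotype means were taken out. Lce1e correlated at 0.96 with each of them (0.87 with Lce1h and 0.89 with Lce1i within genotypes). Lce1f correlated at 0.91 with Lce1j probe 2, at 0.85 with Lce1h and at 0.84 with Lce1i, and Lce1g probe 1 was closest to Lce1f (0.75). The 2 Lce1j probes correlated at 0.82 and the 2 Lce1g probes at -0.06. Lce1b probe 1 and Lce1l, which varied little, correlated with Lce1h at 0.02 each over all arrays, and at 0.32 and 0.46 within genotypes. Which copy the probes of Lce1e, Lce1h and Lce1i measure is uncertain.

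**Figure D4:**
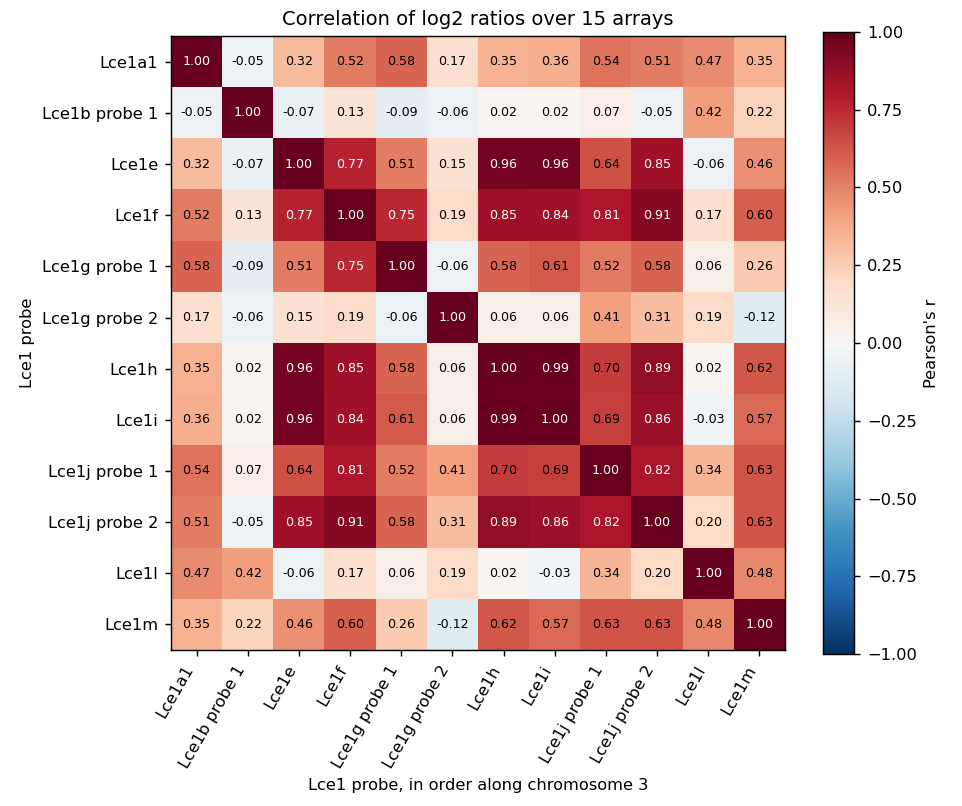
Pearson correlation (colour and number) of log2 ratios over 15 arrays between the 12 tested Lce1 probes, in order along chromosome 3. Lce1e, Lce1h and Lce1i reach 0.96 to 0.99 with each other, while the 2 probes of Lce1g reach -0.06.

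Loss of p27 in the presence of stathmin was one of the comparisons on which the genes were noticed. The log2 difference, p27 knock-out minus wild type, was -2.30 for Lce1i (SE 0.418), -2.23 for Lce1h (SE 0.415), -2.37 for Lce1f (SE 0.907) and -0.97 for Lce1e (SE 0.205). On a linear scale p27 knock-out had 0.204 times the wild type value for Lce1i, 0.213 times for Lce1h and 0.51 times for Lce1e. Of the 12 tested probes 10 were lower and 2 higher, with a median of -0.41 beside 0 over all tested probes. On 3 probes (Lce1e, Lce1h and Lce1i) every p27 knock-out array was below every wild type array, as on 1.42% of all 27667 probes tested. Within slides, p27 knock-out minus wild type was -3.30 to -1.04 for Lce1h, -3.19 to -1.30 for Lce1i and -1.33 to -0.74 for Lce1e over 4 slides. For Lce1f it was -4.57 to 1.29 and above 0 on 1 of 4 slides.

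Stathmin knock-out minus wild type was -1.66 for Lce1h (SE 0.415), -1.65 for Lce1i (SE 0.418) and -0.86 for Lce1e (SE 0.205). Lce1f differed by -1.78 (SE 0.907), with an interval of -3.74 to 0.17. All stathmin knock-out arrays were below all wild type arrays for Lce1e, Lce1h and Lce1i, which held for 1.77% of 27675 probes. Within slides the difference was below 0 on 4 of 4 slides for these 3 probes, at -2.28 to -0.74 for Lce1h. Over the 12 Lce1 probes the median was -0.38. This comparison and the one before share the wild type arrays.

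Double knock-out minus wild type was small for the members that were low in the single knock-outs. It was -0.33 for Lce1h (95% interval -1.30 to 0.63), -0.25 for Lce1i (-1.22 to 0.72) and -0.22 for Lce1e (-0.70 to 0.25). These intervals hold 0, and those of Lce1h and Lce1i reach past -1, so they do not exclude a lower level in the double knock-out. For Lce1f the difference was -0.83 (-2.94 to 1.28). All 12 tested Lce1 probes were below 0, with a median of -0.21, beside -0.01 over all tested probes. On 1 probe, Lce1a1, every double knock-out array lay below every wild type array, as on 3.53% of all tested probes. It differed there by -0.17 (-0.42 to 0.07).

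Double knock-out minus p27 knock-out, the effect of losing stathmin where p27 is already missing, was 1.90 for Lce1h (SE 0.448), 2.04 for Lce1i (SE 0.451) and 0.75 for Lce1e (SE 0.221). Every double knock-out array exceeded every p27 knock-out array for these 3 probes, as for 1.63% of all tested probes. This comparison shares the p27 knock-out arrays with the first, so the values are descriptions.

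Loss of p27 in the absence of stathmin, double knock-out minus stathmin knock-out, was tested. Its differences use none of the arrays of the p27 knock-out and wild type comparison. Its SE and p-values do, because the fit takes 1 spread from all 15 arrays, so the test is not fully independent of the choice. None of the Lce1 probes passed. Lce1i was higher by 1.40 (SE 0.451, 95% interval 0.43 to 2.37) and Lce1h by 1.32 (SE 0.448, interval 0.36 to 2.29), with adjusted p = 1 for both in limma over 27698 probes. Before adjustment, the limma p was 0.00809 for Lce1i and 0.0108 for Lce1h. Double knock-out reached 2.64 times the stathmin knock-out value for Lce1i and 2.50 times for Lce1h, and 3 of 3 double knock-out arrays exceeded all 4 stathmin knock-out arrays. Of the 12 probes, 9 were higher and 3 lower. Lce1f differed by 0.95 (SE 0.979), Lce1g probe 1 by 0.28 (SE 0.643) and Lce1j probe 2 by 0.22 (SE 0.184). Lce1j probe 1, Lce1g probe 2 and Lce1m differed by 0.08, 0.05 and 0.02, and the probes below 0 were Lce1l at -0.20, Lce1a1 at -0.17 and Lce1b probe 1 at -0.06. Each of these had adjusted p = 1 in limma. Lce1e, first noticed with the same stathmin knock-out arrays, differed by 0.64 (SE 0.221) and is a description here as well. Lce1h and Lce1i each correlated with Lce1e at 0.96 over the 15 arrays. Their values on the stathmin knock-out arrays were thus not free of that choice, which limits how their p-values can be read.

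Of all 27698 probes, limma called 0 in this comparison (0%), while 983 had an unadjusted p under 0.05. Every double knock-out array lay above every stathmin knock-out array on 3 Lce1 probes (Lce1e, Lce1h and Lce1i), as on 2.26% of all probes, and below on 2 (Lce1a1 and Lce1l), as on 2.68%. The median over the 12 Lce1 probes was 0.15, beside 0 over all tested probes. Within slides Lce1i differed by 1.63, 0.33 and 2.58 on slides 1, 3 and 4, and Lce1h by 1.30, 0.28 and 2.65, so the size varied with the slide but the direction did not.

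**Figure D5:**
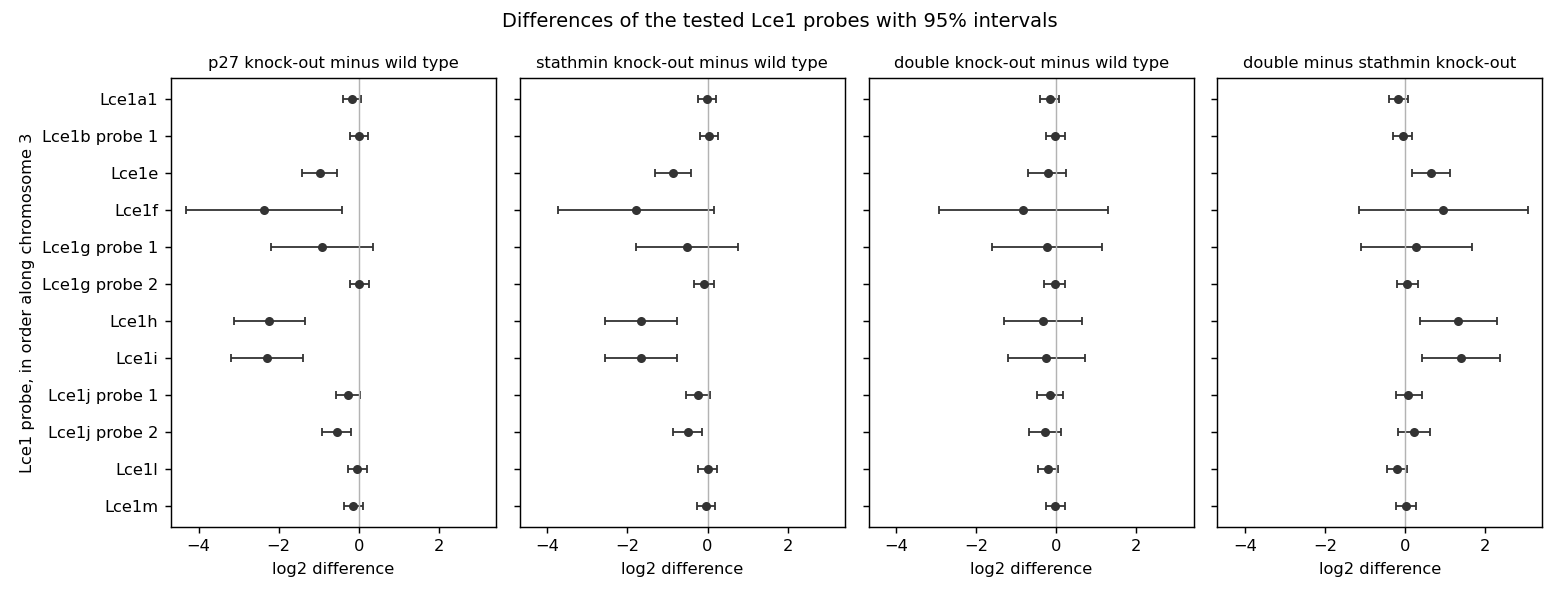
Log2 difference (points) with 95% interval (bars) for the 12 tested Lce1 probes in 4 comparisons, in order along chromosome 3. Lce1h and Lce1i lie at -2.30 to -1.65 in the single knock-outs against wild type, at -0.33 and -0.25 in double knock-out against wild type, and at 1.32 and 1.40 in double against stathmin knock-out.

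For Lce1e, Lce1h and Lce1i the difference between cells without and with p27 had opposite signs in the absence and presence of stathmin. The same signs, with overlapping arrays, held for Lce1f, Lce1g probe 1, both Lce1j probes and Lce1m. Lce1b probe 1 changed sign the other way (-0.06 without and 0.01 with stathmin). The interaction, double knock-out minus stathmin knock-out less p27 knock-out minus wild type, was 3.70 for Lce1i (SE 0.615), 3.55 for Lce1h (SE 0.611) and 1.62 for Lce1e (SE 0.301). For Lce1f it was 3.32 (SE 1.33). The interaction contains the contrasts on which the genes were noticed, so no test is given.

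Other genes of the cornified envelope were read from a list of 52, of which 40 were on the array and 24 could be tested. In limma, 0 of the 24 passed in p27 knock-out against wild type, where 0% of all tested probes did, and 0 in stathmin knock-out against wild type, where 0.00723% did (Stmn1 and Rpl11, a ribosomal protein gene). Likewise 0 passed in double knock-out against wild type and in double against p27 knock-out, where 0.00361% of all tested probes passed in each (Stmn1 alone), and 0 in double against stathmin knock-out, with Cdsn and Lor at an unadjusted limma p under 0.05. In p27 knock-out against wild type 8 were higher and 16 lower (median -0.15), in stathmin knock-out against wild type 8 higher and 16 lower (-0.14), and in double against stathmin knock-out 16 higher and 8 lower (0.16). The members furthest from wild type in both single knock-outs were Lor (loricrin, the main protein of the envelope), Crct1 (a cysteine-rich protein encoded near the Lce genes), and the small proline-rich cross-bridging proteins Sprr1a and Sprr3. They differed in p27 knock-out by -1.69, -1.55, -1.34 and -1.11, and in stathmin knock-out by -1.65, -1.61, -1.55 and -1.25.

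Lor had log2 ratios of -0.23, -2.86, -0.69 and -0.69 on the p27 knock-out arrays, -1.08, -1.69, -0.16 and -1.39 on the stathmin knock-out arrays, and -0.39, 0.55 and 0.67 on the double knock-out arrays, against -0.46, 0.34, 1.15 and 1.24 on the wild type arrays. Its arrays overlapped between genotypes where those of Lce1h did not. In double knock-out against wild type Cdsn (corneodesmosin, which holds corneocytes together) differed by -1.17, Sprr1a by -0.74, Sprr3 by -0.62 and Crct1 by -0.53. In double against p27 knock-out Cdsn differed by -1.63, Lor by 1.40, Ppl (periplakin, which ties the envelope to keratin filaments) by -1.23 and Tchh (trichohyalin of the hair follicle) by 1.17. In double against stathmin knock-out the smallest p-values were those of Cdsn (-2.32, SE 0.738), Lor (1.36, SE 0.598), Tchh (0.95, SE 0.49) and Klk7 (a protease of corneocyte shedding, -0.19, SE 0.123), each with adjusted p = 1 in limma. Cdsn thus ran against the Lce1 probes. Over 15 arrays Crct1 correlated with the mean of the tested Lce1 probes at 0.82, and Lor, Ivl (involucrin, an early scaffold of the envelope), Sprr1a and Sprr2e at 0.81 each. The cross-linking enzyme Tgm1 stood at -0.55 and Cdsn at -0.34. The Lce1 mean is not scaled by probe, so probes of wide range weigh most. It correlated with Lce1f at 0.96, with Lce1h and Lce1i at 0.95 each, and with Lce1b probe 1 at 0.05. Unlike Lce1h, this mean overlapped between genotypes: stathmin knock-out 2 (0.01) lay above wild type 1 (-0.06). The arrays share the reference and the slides.

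The cultures were read for markers of keratinocytes and other epithelium. All 15 fibroblast markers were well above background on all 15 arrays. Of 14 basal keratinocyte markers 10 could be tested, but Cdh1, Epcam, Dsg3 and Lamb3, genes of epithelial junctions and basement membrane, were too dim. Of 9 suprabasal markers 3 could be tested, and Krt2, Krtdap, Dsg1a, Dsc1 and Calml3 were too dim. Raw sample signals differed widely between the tested markers. Those of Krt5 were 208 to 504 units and of Krt1 182 to 637 units over the 15 arrays. Other members were brighter: Krt10 at 1539 to 4234 units, Sbsn at 1439 to 14594, Itga6 at 2401 to 13377 and Sfn at 41226 to 120963. The mean log2 ratio of the basal markers was -0.37 to -0.01 in p27 knock-out, -0.32 to 0.19 in stathmin knock-out and -0.40 to -0.09 in double knock-out, against -0.09 to 0.01 in wild type. That of the 3 suprabasal markers was -0.23 to 0.67 in p27 knock-out, -0.18 to 0.21 in stathmin knock-out and -0.31 to 0.05 in double knock-out, against -0.17 to 0.11 in wild type. Krt10 (a suprabasal keratin) differed by -0.15 in p27 knock-out and -0.05 in stathmin knock-out.

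Of 9 markers of simple epithelium 8 could be tested. Against wild type, 8 were lower in p27 knock-out (median -0.89), 6 in stathmin knock-out (median -0.85) and 8 in double knock-out (median -0.81), with 0 called. The mean of these markers was -1.07 to 0.05 in p27 knock-out, -0.84 to -0.25 in stathmin knock-out and -0.67 to -0.35 in double knock-out, against 0.11 to 0.62 in wild type. The list was not uniform: against wild type, Krt18 differed by -1.83 in p27 knock-out, -2.06 in stathmin knock-out and -0.62 in double knock-out, and Krt19 by -0.80, -0.99 and -0.34 in the same comparisons. In double against stathmin knock-out these simple-epithelium keratins differed by 1.44 (Krt18, SE 0.772) and 0.65 (Krt19, SE 0.299), with adjusted p = 1 in limma. They correlated with the mean of the tested Lce1 probes at 0.61 (Krt18) and 0.68 (Krt19) over 15 arrays. In double against stathmin knock-out 4 markers of the list were higher and 4 lower, with a median of -0.01. Perp differed there by -1.79 (SE 0.642) and Dsp by -0.86 (SE 0.455), with correlations of 0.17 and 0.47 with the Lce1 mean. The interaction was above 0 for 6 of the 8 markers, with a median of 0.77. Their part in the Lce1 values was not tested. The list of 11 regulators of keratinocyte differentiation had 8 tested members, with medians of 0.08 in p27 knock-out against wild type and -0.35 in double against stathmin knock-out, and 0 called. Klf4, a barrier transcription factor, differed by -0.20 and 0.04 in the p27 and stathmin knock-outs. Of 13 S100 genes from the same chromosome region, which encode small calcium-binding proteins, 12 were tested. Their medians were 0.12 in p27 knock-out against wild type and 0.32 in stathmin knock-out against wild type, with 0 called in either. Their signs were mixed: 4 of 12 were lower in p27 knock-out and 5 of 12 in stathmin knock-out, S100a5 among them at -0.33 and -0.37. The fibroblast markers had medians of -0.01 and 0.23 in these comparisons, with 9 and 3 of 15 lower. Dcn, Lum and Pdgfra differed by 3.15, 2.40 and 1.52 in p27 knock-out (highest on array 2). In stathmin knock-out they differed by 1.81, 2.61 and 1.04. They correlated with the Lce1 mean at -0.66, -0.59 and -0.72, while Vim stood at 0.53. In double against stathmin knock-out 2 of the 15 markers were higher and 13 lower (median -0.50). Their part in the Lce1 values was not tested either.

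The genes whose log2 ratios were most like the mean of the 12 tested Lce1 probes over 15 arrays were Atp13a3 (a cation-transporting ATPase of chromosome 16), LOC667836, Ica1l and Slc9a2 (a sodium-proton exchanger), each at r = 0.93. Rbm18 and Klrd1 (a lectin-like receptor of natural killer cells) followed at 0.92, among 26770 probes compared. Of these, 5 are annotated outside chromosome 3 and LOC667836 has no position in the table. The levels of Atp13a3 averaged -0.22 in p27 knock-out, -0.04 in stathmin knock-out and 0.21 in double knock-out, against 0.37 in wild type. Those of Klrd1 averaged -0.62 in p27 knock-out, -0.53 in stathmin knock-out and -0.07 in double knock-out, against 0.64 in wild type, with the probe well above background on 6 of 15 arrays. The 6 were picked as the highest of 26770 correlations.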

How the data were processed

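RNA of 15 cultures was measured on Agilent 2-colour mouse arrays, sample in Cy5 and pooled reference in Cy3. The scanner files give each spot's signal and local background as intensity, not background-subtracted, per the file headers. The deposited log10 ratio, red over green, was computed by the scanner software from dye-normalised signals, per the file headers. A table of log2 values deposited by the authors was used as an alternative; how it was normalised is not given in the sources used here. Its columns have a mean of 0 and medians of 0 to 0.0489, and correlated with the scanner ratio at 0.82 to 0.936.

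From the intensities of 43379 spots per array, limma 3.58.1 in R 4.3.3 corrected background (normexp, offset 50) and normalised within arrays (loess). Outlier spots were left out and spots of a probe averaged. A probe was tested if marked well above background in the sample channel on 3 or more arrays of some genotype (27698 probes, of which 27667 to 27698 had a value in each comparison). All 15 arrays were fitted with a mean per genotype. P-values are two-sided, Benjamini-Hochberg adjusted over all tested probes, and called under 0.05. Names came from RefSeq.

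The members, lists and tests were chosen with earlier results of these data known. Named genes were all Lce1 probes, cornified envelope genes with the smallest p or largest difference, the 6 genes most correlated with the Lce1 mean, Cdkn1b and Stmn1. Krt1, Krt5, Krt10, Krt18, Krt19, Sbsn, Itga6, Sfn, Perp, Dsp, S100a5, Klf4, Tgm1, Sprr2e and Ivl were named after their values were seen. So were Dcn, Lum, Pdgfra and Vim. Each gene of a list was read from its brightest tested probe. Lce1 probes of 1 gene are numbered. Same-numbered arrays had residual correlations of -0.261 to 0.414 (12 of 21 pairs over 0.1), so replicate numbers were not taken as pairs. Promoters were aligned end to end with Biopython 1.88. On simulated data of 27698 probes, the fit for double against stathmin knock-out recovered 46% of 100 probes changed 2-fold and 77% of 100 changed 4-fold. It also called 7 unchanged probes. The changed probes were drawn at random and the noise was independent between probes. Lce1h and Lce1i had wider intervals than the median probe (half-width 0.52), so these shares do not hold for them. Alternatives covered background, normalization, filter, blocks, weights, the arrays in the fit, the authors' table, the scanner ratio, the sample channel alone, wild type 3 and 4 averaged, and leaving out each array.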

Additional observations from a re-analysis of the deposited data

Results flagged for a closer look

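The log2 ratio of Lce1f on p27 knock-out 1 was -0.06, while the other 3 p27 knock-out arrays lay between -2.75 and -2.60. Lce1b probe 2, which is dim, stood at 0.02 on wild type 1, against -0.08 to -0.07 on the other 3. Both samples lay far from the rest of their group by Dixon's criterion. Among 48 groups of 4 arrays examined, 2 held such a sample, and chance marks about 1 in 20 groups.

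For Lce1e, Lce1h and Lce1i every p27 knock-out array was below every wild type array. For the same probes every double knock-out array was above every stathmin knock-out array. These probes were picked for having both separations, and the share of all tested probes with both was not counted. In double against stathmin knock-out limma called 0 probes. The effect of p27 loss without stathmin minus its effect with stathmin was 1.62 for Lce1e, 3.55 for Lce1h and 3.70 for Lce1i on the log2 scale. The difference between the effects was not tested, because the genes were noticed on these arrays.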

How the results depend on the processing

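In double against stathmin knock-out, limma called 0 of 27698 probes, 0 or 1 with 1 array left out, and 1 with array quality weights (Slc25a37, adjusted p = 0.00356). The 1 probe was Slc25a37 without stathmin knock-out 1 and Fn3krp without stathmin knock-out 4, and neither is an Lce1 gene. Counts at an unadjusted p under 0.05 were 438 to 1846 with 1 array left out, 1845 with the replicate block and 2963 with array weights, against 983. With the replicate block, Lce1h differed by 1.31 and Lce1i by 1.41 and 0 probes were called; with slide as a block they differed by 1.20 and 1.27. Over all alternatives the differences were 0.88 (without double knock-out 3) to 1.59 for Lce1h and 0.97 to 1.62 for Lce1i, with lowest adjusted p of 0.341 and 0.336. Those of Lce1f were 0.19 to 1.74, the lowest without double knock-out 3. Those of Lce1g probe 1 were -0.28 to 0.73 with 1 array left out, below 0 without stathmin knock-out 1. Lce1e was 1.12 with the scanner ratio and 1.37 with the sample channel alone, against 0.64. In double knock-out against wild type Lce1e ranged from -0.45 to 0.35, positive with the sample channel alone. The reference channel of Lce1e differed there by 0.57 (SE 0.309), and double knock-out 1 had the high reference signal given above. The cause of that signal was not tested. Lce1h and Lce1i kept their signs in all 6 comparisons under all alternatives, and Lce1i came to -0.01 in double knock-out against wild type without wild type 3. With 3 and 4 arrays a group, array number and the paralogues' possible cross-hybridisation limit what can be said of single Lce1 genes.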
